A study of Homo sapiens with 6 samples.

Results

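The aminoacyl tRNA synthetases are the enzymes that join each amino acid to its tRNA. They were followed as 35 genes, 19 for the cytosolic enzymes and 16 for the mitochondrial ones, chosen by name as members of the family. The array annotation named these genes for 72 of the 54675 probe sets, where a probe set is a group of oligonucleotides that together read the transcripts of a gene. Expression had been measured in K562 cells, an established line of human erythroblastic leukemia, on 3 arrays of parental cells sensitive to methotrexate (MTX) and 3 arrays of cells resistant to it. The resistant cells had been selected with stepwise increasing MTX and are labelled as resistant to 10e-5 M, in the spelling of the labels. Their medium lacked glycine, hypoxanthine and thymidine and held dialyzed serum, and the parental medium was Ham's F12 with whole serum. What belongs to resistance and what to the change of medium cannot be told apart. Nothing in the labels ties the replicates to separate cultures, so p-values here describe the spread among these arrays, which may be technical.

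Each synthetase recognises 1 amino acid, except EPRS1, which holds both a glutamyl and a prolyl enzyme. The amino acid is activated with ATP and transferred to the matching tRNA, and the charged tRNA then carries the residue to the ribosome. Cytosolic and mitochondrial translation mostly use separate enzymes coded by separate nuclear genes, although GARS1 and KARS1 each supply both compartments. Several cytosolic synthetases sit together in a large complex held by scaffold proteins. When amino acids run short, uncharged tRNA activates the kinase GCN2, which leads to more of the transcription factor ATF4, and a number of cytosolic synthetase genes are known ATF4 targets.

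Levels are given as multiples of the median signal of the same array, which ranged from 12.7 to 14.3 over the parental group and from 10.2 to 12.5 over the resistant group. Differences are taken between arrays for the same probe set. Probe sets are ranked by brightness, but this is not read as the amount of transcript. Parental 1 stood apart from its group, with a Spearman correlation of 0.899 and 0.889 with the other parental arrays, which correlated at 0.969 across probe sets. Of the 5 epithelial markers, all were highest in parental 1, including EPCAM at 9.53 there against 0.31 to 1.19 elsewhere in the parental group, and their summed level was 634 in parental 1 against 221 to 332 on the other arrays. The red cell factors GATA1, KLF1, TAL1 and LMO2 were all well above the array median on every array by their brightest probe sets. Dimmer probe sets reached down to 0.06 for TAL1 and 1.64 for LMO2. CD3D, a T cell receptor subunit, was at 31.9 to 50.3 in parental cells and at 0.08 to 2.14 in resistant cells. The other T cell markers listed, CD3E, CD3G and CD2, were at 1.33 or less on every array of both groups. Resistant 3 had the highest ratio of 3' to 5' actin signal, 2.01 against 1.19 to 1.5 on the other arrays, a measure of RNA that was shortened or copied incompletely. The part of these differences in the results was not tested.

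The clearest difference was in LARS1, the cytosolic leucyl enzyme, which has a second known role as a leucine sensor upstream of the growth kinase mTORC1. It was read by 4 probe sets. All 4 were higher on every resistant array than on any parental array, where 14.9% of all tested probe sets were, and 3 of them were called. As the 4 read the same gene, they are not independent of each other. Here a probe set is called if limma gave an adjusted p below 0.05 together with a change of 2-fold or more. Among all 26692 probe sets tested, 1.20% were called higher and 1.14% were called lower, and among the 62 tested synthetase probe sets the 3 of LARS1 were the only calls.

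Probe set 222427_s_at of LARS1 was at 88.0, 82.4 and 73.6 array medians in parental cells and at 195.9, 176 and 177 in resistant cells. Every resistant array was thus far above every parental array, and the log2 difference was 1.17 (SE 0.199; limma adjusted p = 0.0403), a 2.25-fold rise. Probe set 217810_x_at went from 46.9, 38.8 and 34.7 in parental cells to 88.6, 94.7 and 96.0 in resistant cells, with a log2 difference of 1.22 (SE 0.213; limma adjusted p = 0.0419). The spread within each group was small beside the gap between them. Probe set 223888_s_at, much dimmer, was at 5.90, 7.18 and 7.81 in parental cells and at 21.8, 21.1 and 14.8 in resistant cells, and the log2 difference was 1.45 (SE 0.251; limma adjusted p = 0.0414). Its lowest resistant array was resistant 3, which still lay above all parental arrays.

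The fourth LARS1 probe set, 222428_s_at, was at 90.0, 78.7 and 96.5 in parental cells and at 183, 164 and 162 in resistant cells. Its groups were also separate, but with a log2 difference of 0.95 (SE 0.203; limma adjusted p = 0.0757) it was not called. As the brightest of the 4 by mean log2 level, 6.933 against 6.928 for 222427_s_at, it stands for LARS1 where genes are counted below. This margin is narrow, and with 222427_s_at in its place LARS1 would count as a called gene. The names of all 4 probe sets end in _s_at or _x_at, the manufacturer's mark for oligonucleotides that match more than a single transcript, as did those of 27 of the 72 synthetase probe sets. The direction of LARS1 was the same in each alternative analysis that kept its probe sets, but its calls were sensitive. Without parental 1, 2 LARS1 probe sets remained called, and without parental 2, parental 3, resistant 1, resistant 2 or resistant 3 there were 0, with adjusted p from 0.0549 to 0.170 for the 3 probe sets.

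**Figure D1:**
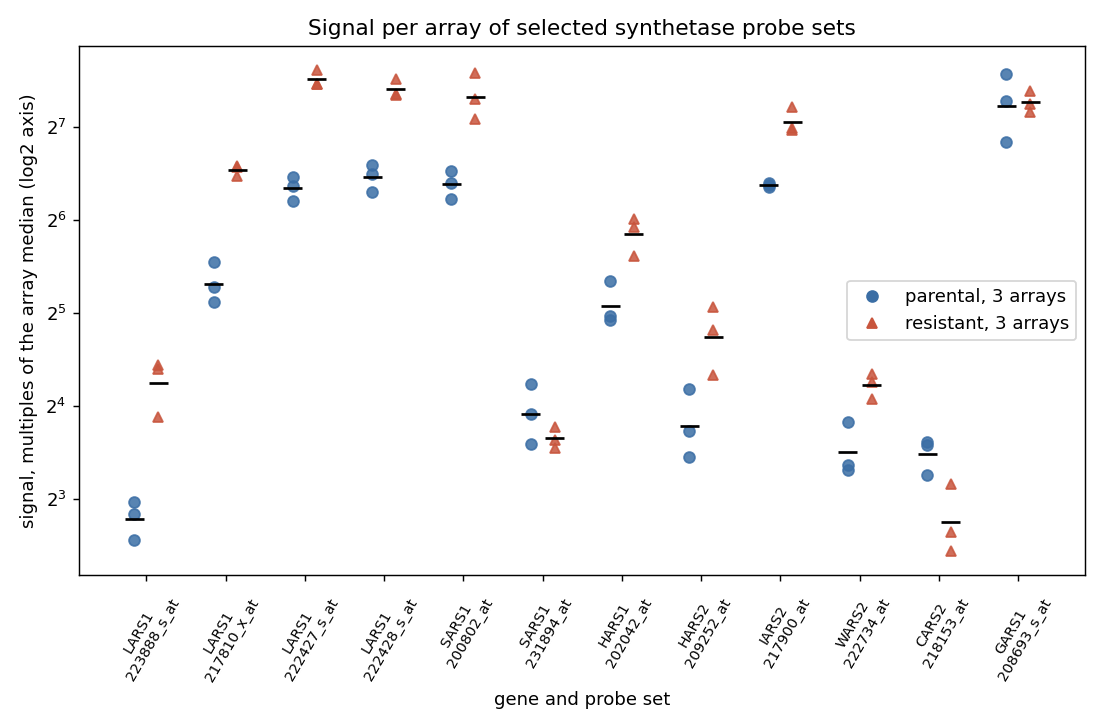
Signal of 12 synthetase probe sets on each of the 6 arrays, with the array median as the unit and a log2 axis. Circles are the 3 parental arrays, triangles the 3 resistant arrays and bars the means of the log2 values. For the 4 LARS1 probe sets every triangle lies above every circle, whereas the groups overlap for GARS1 and for the second SARS1 probe set.

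To compare genes, each was represented by its brightest tested probe set that names 1 gene, which gave 11810 genes, among them 17 cytosolic and 15 mitochondrial synthetases. MARS1, QARS1 and TARS2 were read only by probe sets that also name a microRNA gene inside them, and their values are given separately. All 17 cytosolic synthetases had a log2 difference above 0, from 0.03 for VARS1 to 0.95 for LARS1, with a median of 0.45. Among all genes 51.4% were above 0, and the median was 0.02. For 9 of the 17 every resistant array was above every parental array, against 16.1% of all genes. For 0 of the 17 every resistant array was below every parental array, against 14.2% of all genes. The 17 did not all stay above 0 under other settings. They numbered 12 with the values as deposited, where the median of all genes was -0.19. After quantile normalization they numbered 14, with a median of 0.32 for the 17 and -0.02 for all genes. The 17 were bright, with a median parental level of 110.5, against 13.1 for the mitochondrial synthetases and 10.1 for all genes. Shares among genes of like brightness were not counted.

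By their representative probe sets none of the 17 genes was called by limma, against 1.30% of all genes called higher and 1.47% called lower. LARS1 was called only by its other probe sets. At an unadjusted p under 0.05, 5 of the 17 were higher and 0 lower, against 10% and 9.97% of all genes, and the methods' t-test, run on the same values, also called none of these 17 probe sets. Because a call also needs a 2-fold change, and the smallest called log2 difference of any probe set was 1.04, differences of this size lie at or under the limit of the rule. By probe set rather than by gene, 33 of 36 cytosolic probe sets were above 0. The arrays were separate and higher for 15 of them, where 14.9% of all tested probe sets were, and separate and lower for 0, where 12.3% were.

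The median level of the 17 cytosolic synthetases on each array was 91.9, 122 and 114 in parental cells and 157, 136 and 162 in resistant cells. The resistant medians were thus all above the parental ones, and the lowest was that of parental 1, the array that stood apart. For 10 of the 17 genes parental 1 was the lowest of the 6 arrays. Without parental 1, 15 of the 17 were above 0 and 9 were separate and higher, where 26.4% of all genes were. Without both parental 1 and resistant 3, the counts were 15 and 11, with 33.5% of all genes separate and higher.

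**Figure D2:**
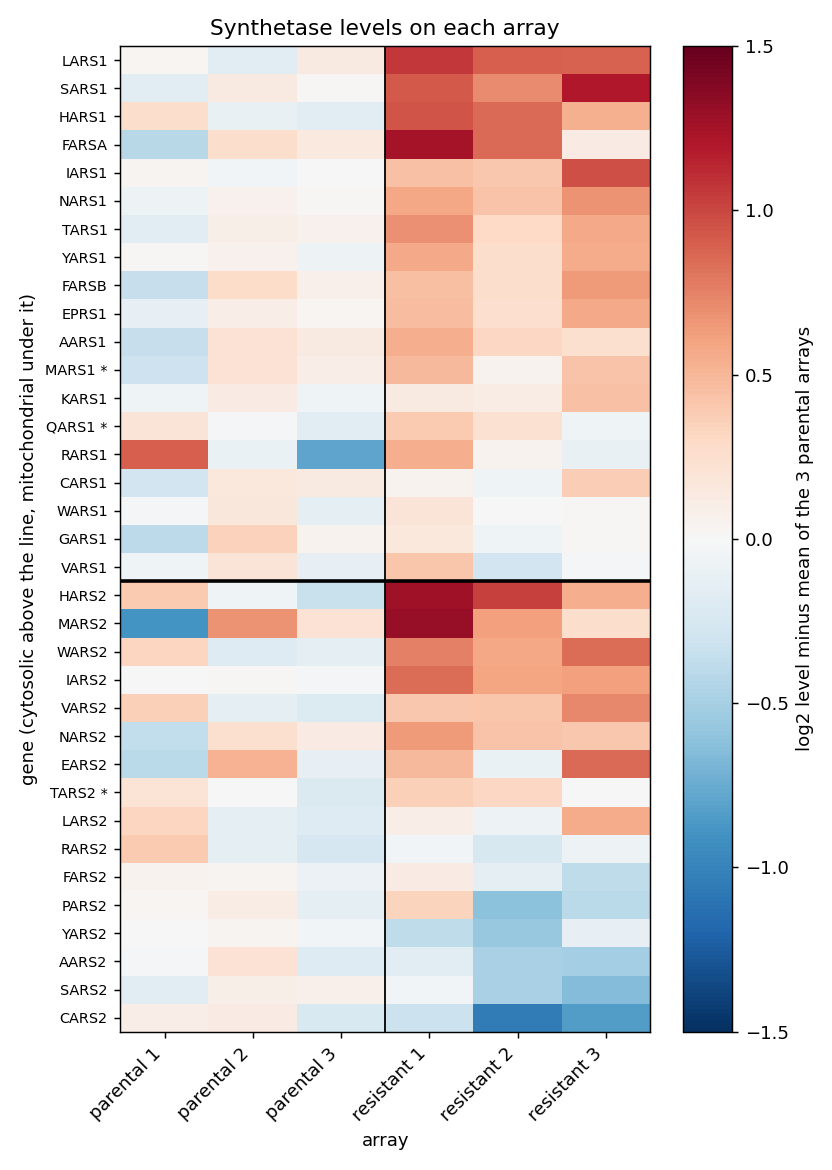
Level of each synthetase on each array, as the log2 level minus the mean of the 3 parental arrays, with red for higher and blue for lower. Genes are ordered by their difference, cytosolic ones above the line and mitochondrial ones under it, and an asterisk marks genes read only by a probe set that names several genes. The upper right block is mostly red, with 9 of 17 genes separate and higher, while the lower right block runs from red to blue.

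SARS1, the cytosolic seryl enzyme, which also charges the tRNA used for selenocysteine, came next to LARS1. Its probe set 200802_at was at 74.8, 92.0 and 84.5 in parental cells and at 157, 136 and 191 in resistant cells. The groups were separate and the log2 difference was 0.94 (SE 0.227; limma adjusted p = 0.0982). A second, dimmer SARS1 probe set, 231894_at, was at 12.1, 18.8 and 15.1 in parental cells and at 12.4, 13.7 and 11.7 in resistant cells, a log2 difference of -0.26 with overlapping groups. The SARS1 probe sets thus disagree in sign, and which of them reads the main transcript was not tested.

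HARS1, the cytosolic histidyl enzyme, was at 40.6, 31.3 and 30.3 in parental cells and at 64.7, 60.9 and 49.0 in resistant cells, with a log2 difference of 0.78 (SE 0.234; limma adjusted p = 0.154). FARSA, the catalytic subunit of the phenylalanyl enzyme, was at 37.0, 59.4 and 54.4 in parental cells and at 117, 88.5 and 53.6 in resistant cells by its brightest probe set. For HARS1 all resistant arrays were higher, but for FARSA resistant 3 lay within the parental range, and the log2 difference of 0.74 (SE 0.356) gave a limma adjusted p of 0.329. This difference was 0.48 without resistant 1 and 1.04 without resistant 3. The other FARSA probe set, 202159_at, had a log2 difference of 0.81 (SE 0.240; limma adjusted p = 0.151) and separate groups. FARSB, the second subunit of the same enzyme, had a log2 difference of 0.45, with parental 2 just above resistant 2.

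IARS1, the isoleucyl enzyme of the large complex, was at 223, 211 and 216 in parental cells and at 294, 287 and 422 in resistant cells. NARS1, the asparaginyl enzyme, was at 143, 158 and 153 in parental cells and at 226, 204 and 242 in resistant cells. Parental arrays lay close together for both genes, every resistant array was higher, and the single highest value of IARS1 was on resistant 3. The log2 differences were 0.60 for IARS1 and 0.56 for NARS1, with limma adjusted p of 0.236 and 0.199. TARS1, the threonyl enzyme, was at 159, 187 and 185 in parental cells and at 284, 216 and 261 in resistant cells, a log2 difference of 0.52 (limma adjusted p = 0.269). YARS1, the tyrosyl enzyme, was at 122, 126 and 114 in parental cells and at 179, 144 and 178 in resistant cells, a log2 difference of 0.46 (limma adjusted p = 0.293). Both again had separate groups, as did EPRS1 and AARS1, the glutamyl-prolyl and alanyl enzymes, with log2 differences of 0.42 and 0.36.

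The groups overlapped for the remaining cytosolic genes. GARS1, which charges tRNA with glycine, the amino acid missing from the medium of the resistant cells, was at 114, 189.8 and 155 in parental cells and at 167, 143 and 152 in resistant cells. Its parental arrays spanned a wider range than its resistant ones, and the log2 difference was 0.04 (SE 0.254). WARS1, the tryptophanyl enzyme, which is also an interferon-gamma target, had a log2 difference of 0.07, and VARS1, the valyl enzyme, one of 0.03. RARS1, the arginyl enzyme, was at 94.0, 47.3 and 29.1 in parental cells and at 74.0, 52.3 and 46.9 in resistant cells, a wide spread within the parental group. CARS1, the cysteinyl enzyme, had log2 differences of 0.12, -0.20 and -0.27 by its 3 tested probe sets, so that its sign is not settled. KARS1, the lysyl enzyme, had 0.23. MARS1 and QARS1, the methionyl and glutaminyl enzymes counted apart for their shared annotation, had 0.32 and 0.18.

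**Figure D3:**
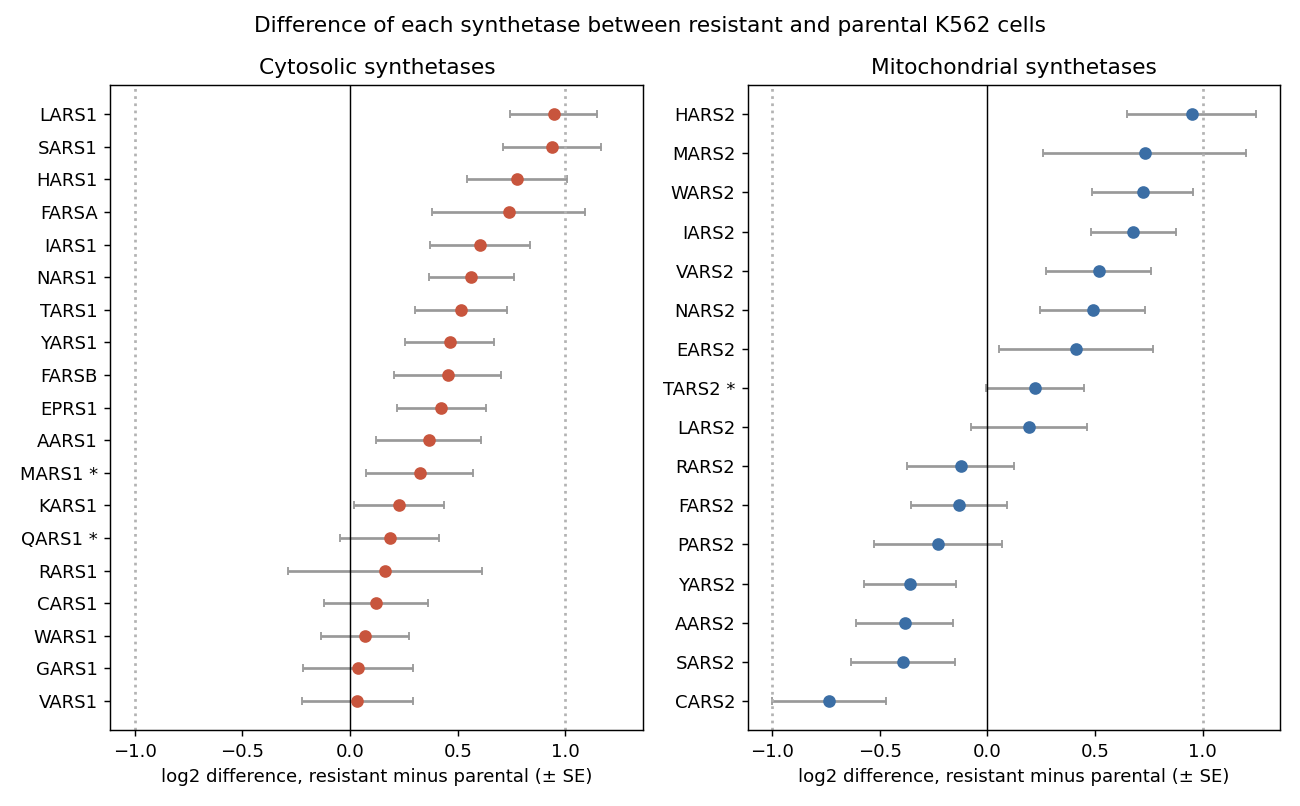
Log2 difference between resistant and parental cells of each synthetase by its representative probe set, with the standard error of the fit. Dotted lines mark a 2-fold change to either side, and an asterisk marks genes read only by a probe set that names several genes. All cytosolic points lie right of 0, up to 0.95, and the mitochondrial points run from -0.73 to 0.95.

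The cytosolic enzymes were also grouped by place and by known control. The 5 tested members of the large complex had a median log2 difference of 0.42, with 3 separate and higher, and the 12 outside it had 0.46, with 6. The 11 tested genes on the list of known ATF4 targets had a median of 0.46, with 8 separate and higher. The 6 other cytosolic genes had 0.34, with only HARS1 separate and higher by its representative probe set. Among all genes 16.1% were separate and higher. By other tested probe sets, FARSA was also separate and higher, while EPRS1, SARS1 and TARS1 of the ATF4 list each had 1 that overlapped. Among class I and class II enzymes of both compartments, the structural classes of the family, the medians were 0.30 over 16 genes and 0.45 over 15. The differences between these lists were not tested.

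ATF4 binds composite sites of the letters TGATGNAA, and the promoters were searched for these letters on both strands. The windows were those of RefSeq on GRCh38.p14, from 250 bases before to 50 bases after each start site, and 30 of the 35 members had at least 1. The letters were found in the windows of 7 of the 16 cytosolic members and 1 of the 14 mitochondrial members with a window, whereas 3.62% of all 35116 windows and 4.46% of all genes held them. The 7 cytosolic genes were all among the 10 ATF4 targets with a window. A match describes the letters in this window and is not shown to be a bound site. The stretches are shown because they are what the members with the letters share, each 5' to 3' on the strand of its gene, with the match in capitals. Where the match lies on the opposite strand it reads TTNCATCA.
TARS1, chr5:33440956-33440985, plus strand: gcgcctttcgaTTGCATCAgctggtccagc
CARS1, chr11:3057407-3057436, minus strand: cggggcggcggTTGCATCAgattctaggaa
MARS1, chr12:57488053-57488082, plus strand: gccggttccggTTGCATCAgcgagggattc
IARS1, chr9:92293692-92293721, minus strand: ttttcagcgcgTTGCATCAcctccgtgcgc
NARS1, chr18:57621804-57621833, minus strand: tctacgctctcTGATGCAAcgccggaatcg
GARS1, chr7:30594834-30594863, plus strand: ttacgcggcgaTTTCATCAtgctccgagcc
AARS1, chr16:70289675-70289704, minus strand: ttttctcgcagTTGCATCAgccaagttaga
YARS2, chr12:32756076-32756105, minus strand: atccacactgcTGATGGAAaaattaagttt

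In TARS1, CARS1, MARS1, IARS1 and NARS1 the match began within 15 bases of the start site, and in GARS1 it began 33 bases before it. In AARS1 and YARS2 it lay farther off, 187 and 197 bases before the start. The log2 differences of these genes ran from -0.36 for YARS2, which had all resistant arrays below all parental arrays, through 0.04 for GARS1 and 0.12 for CARS1, to 0.60 for IARS1. LARS1 and YARS1, VARS1, AARS2 and VARS2 were not searched.

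The mitochondrial synthetases did not share a direction. Of 15 genes, 8 had a log2 difference above 0 and 7 below, with a median of 0.19. Separate and higher were 5 of the 15, against 16.1% of all genes, and separate and lower were 2, against 14.2%. The median level per array was 14, 13.5 and 11.2 in parental cells and 17.1, 11.9 and 20.2 in resistant cells, so that resistant 2 lay within the parental range. The median log2 difference was 0.01 without resistant 3, 0.10 without parental 3, 0.13 without parental 2 and 0.33 without resistant 2, and 0.05 without both parental 1 and resistant 3. With the values as deposited it turned to -0.01, and 2 genes were separate and higher, where 8.23% of all genes were. limma called 0 of the 26 tested mitochondrial probe sets, with a smallest adjusted p of 0.143, and the methods' t-test also called 0. At an unadjusted p under 0.05, 3 of the 15 genes were higher and 1 was lower, where 10% and 9.97% of all genes were.

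HARS2, the mitochondrial histidyl enzyme, had the largest difference of this group, at 18.2, 13.3 and 10.97 in parental cells and at 33.5, 28.1 and 20.2 in resistant cells (log2 difference 0.95, SE 0.300; limma adjusted p = 0.168). IARS2, the isoleucyl enzyme, was at 82.9, 84.5 and 82.1 in parental cells and at 148, 125 and 127 in resistant cells (log2 difference 0.68, SE 0.197; limma adjusted p = 0.143). The parental arrays of IARS2 were nearly equal, and the resistant arrays of both genes all lay above them. WARS2, the tryptophanyl enzyme, was at 14.2, 9.96 and 10.3 in parental cells and at 19.1, 16.9 and 20.3 in resistant cells, with a log2 difference of 0.72 (SE 0.234; limma adjusted p = 0.174). Its second tested probe set, 218766_s_at, had a log2 difference of 0.49 with separate groups. VARS2 and NARS2, the valyl and asparaginyl enzymes, were the remaining genes that were separate and higher, with log2 differences of 0.52 and 0.49.

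MARS2, the methionyl enzyme, was at 3.43, 10.1 and 7.40 in parental cells and at 15.8, 9.77 and 7.63 in resistant cells. Its log2 difference of 0.73 (SE 0.473; limma adjusted p = 0.454) became 0.28 without parental 1, its lowest array, and the groups overlapped. CARS2, the cysteinyl enzyme, went the other way, at 12, 12.2 and 9.54 in parental cells and at 8.93, 5.42 and 6.26 in resistant cells. Every resistant array was lower, and the log2 difference was -0.73 (SE 0.266; limma adjusted p = 0.209). YARS2, the tyrosyl enzyme, was the other gene with separate and lower groups, at a log2 difference of -0.36. AARS2 and SARS2, the alanyl and seryl enzymes, had -0.38 and -0.39 with overlapping groups. EARS2, the glutamyl enzyme, had log2 differences from -0.29 to 0.41 by its 4 tested probe sets. The remaining values were 0.19 for LARS2, -0.12 for RARS2, -0.13 for FARS2 and -0.23 for PARS2, and 0.22 for TARS2 by its shared annotation.

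Enzymes of the same amino acid could be set side by side in 15 pairs of a cytosolic and a mitochondrial gene, with EPRS1 and FARS2 each used in more than 1 pair. The cytosolic difference was the larger in 11 of the 15, and the median gap was 0.58 on the log2 scale. The ratio of the cytosolic to the mitochondrial signal was higher on all resistant arrays than on all parental arrays for 6 pairs, those of serine, cysteine, tyrosine and alanine and both subunits of phenylalanine. For tryptophan the ratio was lower on all resistant arrays, with log2 differences of 0.07 for WARS1 and 0.72 for WARS2. Histidine and isoleucine had differences of like size in both compartments, 0.78 and 0.95 for the histidyl pair and 0.60 and 0.68 for the isoleucyl pair. Since the ratio is taken within an array, it shows unequal change and not which enzyme changed. How often the ratio separates for other pairs of genes was not counted, so the 6 pairs have no background share.

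**Figure D4:**
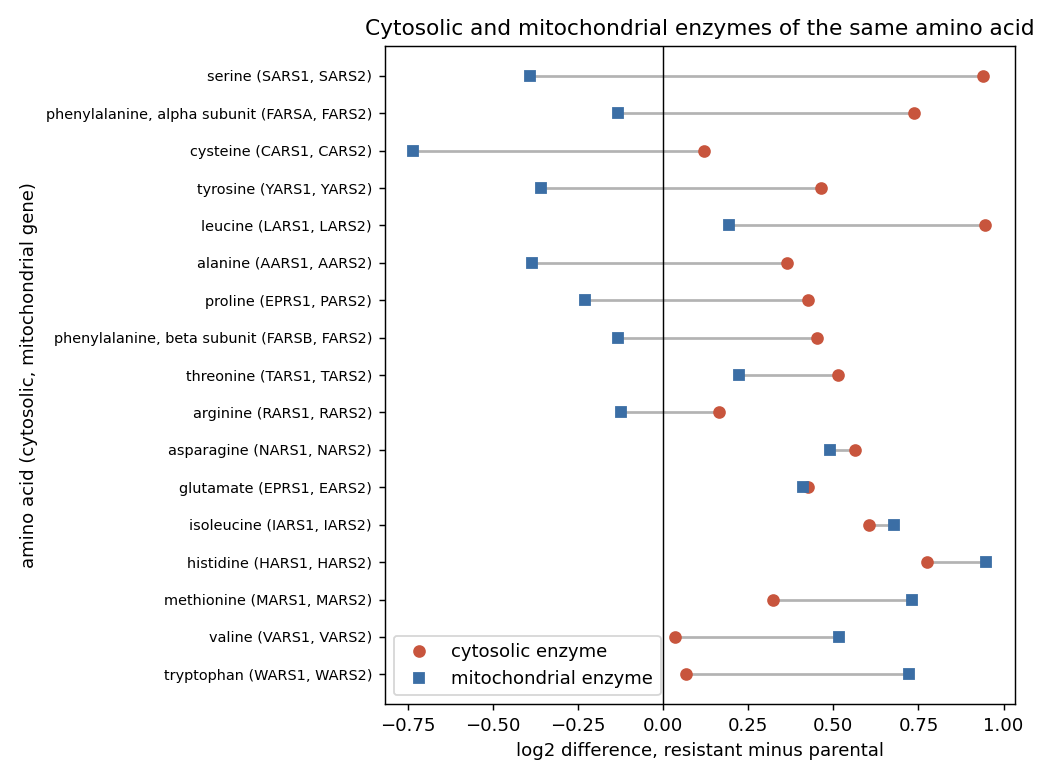
Log2 difference between resistant and parental cells for the cytosolic enzyme (circle) and the mitochondrial enzyme (square) of the same amino acid, ordered by the gap. The widest gap is that of serine, 0.94 for SARS1 against -0.39 for SARS2, and tryptophan shows the opposite order. The methionine and threonine pairs include a gene read only by a probe set that names several genes.

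HARS1 and HARS2 are neighbours on chromosome 5, transcribed away from each other from a shared promoter region. Their start sites in RefSeq on GRCh38.p14 are separated by 84 bases at chr5:140691371-140691454, shown on the plus strand because HARS1 and HARS2 had like differences and these bases lie upstream of both.
HARS1 and HARS2, between the start sites: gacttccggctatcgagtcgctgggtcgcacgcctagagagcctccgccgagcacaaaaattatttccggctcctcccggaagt
Of these bases 59.5% are G or C. The letters TGATGNAA were not found in either window. A start site on the opposite strand within 250 bases upstream was found for 14.2% of all genes. It was found for 8 of the 30 members with a window: HARS1, HARS2, TARS1, KARS1, WARS1, FARS2, RARS2 and SARS2. The share within 84 bases was not counted.

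LARS1 lies farther along the same chromosome, with 21 tested genes between HARS1 and LARS1 in gene order, and TARS1 and RARS1 are also on chromosome 5. The genes around LARS1 were higher too. Of the 15 tested genes on one side of it, from HDAC3 to PLAC8L1, 13 were above 0 with a median log2 difference of 0.62, and of the 15 on the other side, from RBM27 to RBM22, 13 were above 0 with a median of 0.47. The neighbours of HARS1 had medians of 0.45 over 15 genes and 0.61 over 14, with windows that partly overlap those of LARS1. Around TARS1 both medians were 0.04, and around RARS1 they were -0.01 and -0.11. Over all 505 tested genes of chromosome 5 the median was 0.15 and 61.4% were above 0. The medians around LARS1 and HARS1 were thus above that of the chromosome. LARS1 and HARS2, both 0.95, and HARS1, 0.78, were named for their large differences, so a median of neighbours is no like comparison. Separate and higher were 6 and 7 of the 15 genes on either side of LARS1, against 16.1% of all genes. Around HARS1 they were 4 of 15 and 6 of 14, around TARS1 3 and 4 of 15, and around RARS1 0 and 4 of 15. Of the neighbours around LARS1 only ARAP3 was called, where 1.30% of all genes were called higher and 1.47% lower. The part of position in the synthetase differences was not tested.

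Of 11 partners of the synthetases that were tested, limma called 0, with 2 higher and 1 lower at an unadjusted p under 0.05, where 10% and 9.97% of all genes were, and the methods' t-test called 0. AIMP1, the scaffold of the large complex that was tested, had a log2 difference of 0.23. Of the genes that complete mitochondrial charging, QRSL1, a subunit of the enzyme that makes glutaminyl tRNA, and MTFMT, which formylates initiator methionyl tRNA, had 0.51 and 0.58 with separate and higher groups, whereas GATB and GATC, the other subunits, had 0.03 and -0.13. Dimmer probe sets of QRSL1 ran from -0.50 to 0.81, and the dimmer one of GATC had 0.24. DTD1, which removes D-amino acids from tRNA, had 0.58 and separate groups, and DTD2 and TRNT1, which act in the same editing and in end repair, had 0.23 and -0.02. XPOT, the tRNA export factor, had 0.07 with overlapping groups by its brightest probe set and 0.58 with separate and higher groups by the other.

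PSTK, the kinase that phosphorylates seryl tRNA on the way to selenocysteine, was at 34.5, 29.5 and 29.95 in parental cells and at 16.5, 16.4 and 14.7 in resistant cells. Every resistant array was lower, the arrays of each group lay close together, and the log2 difference was -0.98 (SE 0.199; limma adjusted p = 0.0665), just outside the threshold. SEPSECS, which acts after PSTK, had 0.59 with overlapping groups. SARS1, which supplies the seryl tRNA for this route, had 0.94 by its brighter probe set.

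The ATF4 targets outside the family were mixed. Of 14 tested, 9 were above 0 with a median log2 difference of 0.30. Separate and higher were 5, against 16.1% of all genes, and separate and lower were 2, against 14.2%. limma called 0 of them, with 4 higher and 1 lower at an unadjusted p under 0.05, against 10% and 9.97% of all genes, and the methods' t-test called 0. SLC7A11, a cystine transporter, had 0.93 and ATF3, a stress transcription factor, 0.91, whereas DDIT3, the stress factor CHOP, had -1.08 (limma adjusted p = 0.127). Dimmer probe sets of SLC7A11 had -0.12 and 0.66, and those of ATF3 had -1.28 and 0.52. ATF4 itself, not counted among the 14, had 0.37, with levels of 212, 235 and 216 in parental cells and 284, 283 and 291 in resistant cells. Of the interferon-gamma targets listed beside WARS1, GBP2 had 2.25 (limma adjusted p = 0.178) and IRF1 0.50, while WARS1 had 0.07. GBP2 and IRF1 were separate and higher by their brightest probe sets, as were 16.1% of all genes. The dimmer probe set of IRF1 had 0.47 with overlapping groups, and that of GBP2 had 1.78 with separate groups. GBP1 and IDO1 were below the level filter. By its brightest probe set GBP2 was at 0.587 on parental 1 against 4.05 and 3.37 on the other parental arrays. Without parental 1 this log2 difference of GBP2 was 1.37 (limma adjusted p = 0.0753).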

How the data were processed

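Total RNA of K562 cells was hybridised to Affymetrix HG-U133 Plus 2.0 arrays, 3 parental and 3 resistant. The deposited intensities, 1 linear signal per probe set, were computed by the authors with MAS5 (version not stated in the sources used here). The further scaling in the study's methods, by array median and by parental median, was not present in these values. Probe sets were matched to genes through the platform annotation, and 41043 of 41097 naming 1 gene were found in RefSeq by gene ID. Some related genes are not reported here.

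Each intensity was divided by its array's median, floored at 0.01 and taken as log2. Probe sets with a mean below 1 array median were left out, among them 10 of the 72 of the synthetases, as were 62 manufacturer's controls. lmFit and eBayes of limma 3.58.1 (R 4.3.3) compared the groups, two-sided, with Benjamini-Hochberg adjustment over all 26692 probe sets. The fit was tested on simulated data. Groups and replicate numbers came from the labels. Same-numbered arrays deviated together no more than others, with correlations from -0.03 to -0.01, so the numbers were not used as pairs. The number of arrays limits the precision. Values below the array median are near background.

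Genes named were every called member, the 8 cytosolic and 5 mitochondrial members with the greatest absolute differences, members whose probe sets disagree, and related genes that were called or among the 3 with the greatest differences in their list. Others were named after their values were seen. Members and lists (cytosolic, mitochondrial, complex, ATF4 targets, structural class, partners, interferon-gamma targets, cell markers) were chosen with earlier results of these data known. For the lists of B cell and fibroblast markers, the list median of the tested genes stayed at 3.34 array medians or less. COL1A1, a fibroblast marker, was at 5.20 on parental 2. The median log2 difference of 5 red cell markers was 0.13, with a range from -0.82 for GATA1 to 0.56 for KLF1. Promoter letters were searched in the RefSeq windows given in the text. The alternatives are given in the closing section.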

Additional observations from a re-analysis of the deposited data

How the results depend on the processing

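The log2 differences of the 13 synthetases named by rule, over 16 probe sets, kept their sign in every alternative that gave them a value. No value came from leaving out probe sets of shared sequence for the LARS1 probe sets and those of FARSA, IARS1 and YARS1, nor from averaging the probe sets of a gene, which was run for the medians of the lists. A difference of under 2-fold could not be called, and groups of 3 arrays limit the precision. With values as deposited, where the median of all genes shifted to -0.19, 0 synthetase probe sets were called, the cytosolic median was 0.25 and the mitochondrial median -0.01 (-0.0078). Without the level filter there were 0 synthetase calls and 174 calls over all probe sets, against 3 and 622. A pseudocount of 1 array median gave 1191 calls in all, and limma with a trend and robust prior 1133. The methods' t-test gave 1 synthetase call, LARS1 by 222427_s_at, and 126 in all. It was run on the log2 values and level filter used here. The study's software and its filter on measurement precision were not reproduced, so these are not the study's own counts. With the replicate number as a block there were 0 and 269. Leaving out single arrays gave 0 to 2 synthetase calls and 204 to 1080 in all, the most without parental 1 and the fewest without resistant 2. Without probe sets of shared sequence there were 0 and 394, as all LARS1 probe sets were removed, and all 11 cytosolic genes still tested were above 0. Without parental 1 and resistant 3 together, chosen after seeing the data, there were 1014 calls in all. No member other than LARS1 was called in any of these settings. The cause of the other changes was not tested.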
